A study of Mus musculus with 6 samples.

Results

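The 10 genes described here encode subunits of NuA4/TIP60, a large nuclear complex that acetylates histones and exchanges histone variants. They were chosen by name (Kat5, Epc1, Epc2, Ing3, Mrgbp, Morf4l1, Morf4l2, Yeats4, Trrap and Ep400) from the 53700 mouse genes in the count tables, and all 10 had enough reads to be tested. RNA came from whole testes of mice at postnatal day 45. The comparison was between 3 mice wild type for Msl3 (WT) and 3 mice labelled as conditional knockouts of a floxed Msl3 allele (cKO). All 6 mice, the wild types included, carry the strain label Msl3em1Forni/C57BL/6J. The labels name no recombinase, so the cells in which the allele was meant to be deleted, and the deleted exons, are not given in the sources used here. The labels call the animals of a group biological replicates. In whole testis, fewer cells of a type and less RNA per cell cannot be told apart.

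Kat5 (TIP60) is the catalytic subunit and acetylates histones H4 and H2A. It is held in a small module with an enhancer of polycomb protein (Epc1 or Epc2) and Ing3, which reads methylated histone H3. Trrap is a very large scaffold that binds transcription activators, and Ep400 is the ATPase that places the histone variant H2A.Z. Morf4l1 (MRG15) and Morf4l2 (MRGX) carry the MRG domain that is also found in Msl3. Morf4l1 has a chromodomain that reads methylated histone H3, and Morf4l2 lacks it. In the testis, histone H4 is heavily acetylated in spermatids before histones are replaced by transition proteins and then protamines.

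Between 56991431 and 73766444 reads per library were assigned to genes. Levels are given as CPM, the counts per 1000000 reads of library sizes scaled by the trimmed mean of M values (TMM), and log2 fold changes are those of the cKO libraries over the WT libraries. Msl3 itself was not lower by the test in the libraries labelled cKO, at 16.9 ± 1.68 CPM (SD, n = 3) in WT and 15.6 ± 0.649 CPM (SD, n = 3) in cKO, a log2 fold change of -0.12 (edgeR quasi-likelihood adjusted p 0.551). This count covers the whole gene in whole testis, so a loss limited to some exons or some cells was not tested. Every group name below is therefore that of the label. Cell types were looked at with 74 marker genes of 11 cell types, of which 69 had enough reads to be tested. Of these, 0 passed the adjusted test, against 0.0183% of all genes, so that count says little of cell composition. At an unadjusted edgeR p under 0.05 there were 5 markers with higher and 11 with lower values in cKO. That was 23.2% of the markers tested, against 13.9% of all genes. Of the 8 round spermatid genes, 4 were under 0.05, all with lower values. Summed levels were 18712 to 20487 CPM in WT and 16189 to 19269 CPM in cKO for 8 elongating spermatid genes. They were 4.75 to 5.66 and 3.89 to 5.65 CPM for 6 epididymal genes, of which Lcn8 had no read in any library. Rnase10, the only 1 of the 6 with enough reads to be tested, made up most of these sums. It was at 4.80 ± 0.503 CPM in WT and 4.50 ± 0.905 CPM in cKO (SD, n = 3 each). The summed levels of WT and cKO libraries did not overlap for 3 of the 11 lists: spermatocytes (1437 to 1490 against 1497 to 1515 CPM), round spermatids (1388 to 1425 against 1175 to 1355 CPM) and endothelium (18.5 to 19.8 against 20.3 to 23.9 CPM). Gene by gene, groups without overlap were found for 0 of 8 spermatocyte, 2 of 8 round spermatid and 2 of 4 endothelial genes. The share over all genes was 18.9%. Of the spermatocyte genes, 4 log2 fold changes lay above 0 and 4 below.

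None of the 10 subunit genes passed an adjusted p of 0.05 (edgeR quasi-likelihood test, Benjamini-Hochberg over all 21902 genes tested), where 4 genes, or 0.0183%, did so across the transcriptome. At an unadjusted p under 0.05 there were 2 members, Trrap and Ep400, both with higher values in cKO, against 13.9% of all genes. That count was 4 without cKO 1 and 1 without WT 3, cKO 2 or cKO 3. Over all genes the same count was 3039 of 21902 tested with all libraries. It was 3815 of 22255 without cKO 1 and 1410 of 22167 without WT 3. Without cKO 2 it was 1883 of 22304, and without cKO 3 it was 2242 of 22328. The groups did not overlap for 2 members, Trrap and Ing3, against 18.9% of all genes. The members had a median log2 fold change of 0.03, beside 0.0031 over all genes tested, with 6 values above 0 and 4 below under TMM scaling. Both shares, 20% of the members, are near those of all genes. The smallest adjusted p among the members was 0.276, for Trrap.

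**Figure D1:**
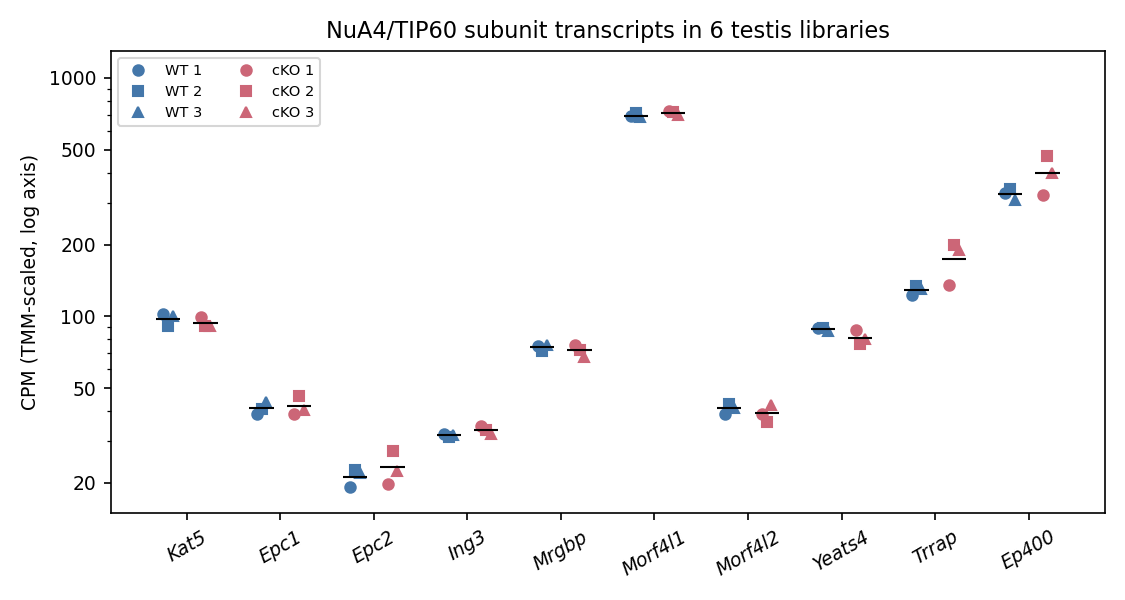
Level of each subunit gene in CPM (log axis) in every library. WT libraries are blue and cKO libraries red, with the replicate number as the marker shape, and black bars are group means of n = 3. The groups interleave for most genes, while for Trrap and Ep400 cKO 2 and cKO 3 lie above all WT libraries.

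The enhancer of polycomb pair bridges the catalytic subunit to the rest of the complex. Epc1 (ENSMUSG00000024240, chromosome 18, 6435951 to 6516108, GRCm38) was at 39.1, 40.9 and 43.5 CPM in WT 1, 2 and 3 and at 38.9, 46.4 and 40.6 CPM in cKO 1, 2 and 3. The cKO libraries enclosed the WT range, with cKO 2 the highest and cKO 1 the lowest of the 6. Its log2 fold change was 0.03 (SE 0.081, adjusted p 0.910 with edgeR) with TMM scaling and -5.2e-04 with library totals alone. It was also below 0 without cKO 2 (-0.049), without WT 1 (-0.0070) and with a correction of each library for transcript length and GC content (-0.018). Epc2 (ENSMUSG00000069495, chr2:49451486-49551948) was at 19.2, 22.6 and 21.98 CPM in WT and at 19.9, 27.3 and 22.5 CPM in cKO. The library cKO 2 stood above the other 5, which overlapped. The log2 fold change of Epc2 was 0.13 (SE 0.11, edgeR adjusted p 0.646), and it was -0.0047 without cKO 2.

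Kat5, the acetyltransferase, lies on chr19:5603014-5610237 (ENSMUSG00000024926). It was at 102, 90.9 and 99.8 CPM in WT and at 99.5, 91.2 and 91.3 CPM in cKO. The lowest and the highest library were both WT, so the cKO range lay inside the WT range. Kat5 in cKO stood at 96.3% of WT (95% limits 86.5% and 107.3%, edgeR adjusted p 0.778). Ing3 (ENSMUSG00000029670, chr6:21949571-21976038), whose PHD finger reads methylated histone H3, was at 32.1, 31.2 and 31.7 CPM in WT and 34.8, 33.4 and 32.1 CPM in cKO. Its groups did not overlap, but cKO 3 exceeded WT 1 by less than 0.1 CPM. Ing3 in cKO was at 105.6% of WT, with limits of 95.4% and 117.0% (edgeR adjusted p 0.630).

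The MRG proteins are the members related to Msl3, and their partner Mrgbp binds the MRG domain. Morf4l1 (ENSMUSG00000062270, chr9:90091665-90114774) was at 690, 712 and 684 CPM in WT and at 727, 722 and 696 CPM in cKO. The cKO libraries tended to the upper end, but cKO 3 lay below WT 2. The log2 fold change was 0.04 (SE 0.061), or 102.8% of WT with limits of 93.7% and 112.8% (edgeR adjusted p 0.818). Morf4l2 is the X-linked member of the pair (ENSMUSG00000031422, chrX:136732942-136743690). It was at 39.1, 42.9 and 41.3 CPM in WT and at 38.9, 35.9 and 42.6 CPM in cKO. The lowest value was that of cKO 2, and the groups overlapped. Its log2 fold change was -0.07 (SE 0.079), or 95.2% of WT with limits of 84.5% and 107.2% (edgeR adjusted p 0.725). Mrgbp (ENSMUSG00000027569, chr2:180581304-180586304) was at 75.3, 71.8 and 75.9 CPM in WT and at 76.2, 72.1 and 67.8 CPM in cKO, again with overlap. Its cKO level was 96.9% of WT, with limits of 87.4% and 107.4% (edgeR adjusted p 0.813).

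Counts of the MRG pair could be told apart from each other, since no stretch of 75 bases, the read length, occurred in transcripts of both genes. Of the stretches of 75 bases in Morf4l1, 20.1% also occurred in transcripts of other genes on either strand. The antisense lincRNA Gm26882 held 13.2% and the pseudogene Morf4l1-ps1 7.90%. Gm26882 overlaps Morf4l1 at its own locus on the opposite strand, which was not counted. Reads that mapped to several places were put on a line of their own that names no gene. Reads from stretches shared with genes elsewhere, such as Morf4l1-ps1, can be lost in that way, so the Morf4l1 count carries that uncertainty. For Morf4l2 the shared part was 8.63%, nearly all of it in AC165327.2. The 250 bases before the RefSeq start of both genes (GRCm38.p6) are shown because the pair is a paralog pair on an autosome and on the X chromosome. Morf4l1 has 54.0% G and C and 8 CpG there, and Morf4l2 has 44.8% and 10. Capitals mark matches, on either strand, to TGACG (the core of cyclic AMP response elements), CCAAT or GGGCGG (the GC box):
Morf4l1, chr9:90114821-90115070, minus strand: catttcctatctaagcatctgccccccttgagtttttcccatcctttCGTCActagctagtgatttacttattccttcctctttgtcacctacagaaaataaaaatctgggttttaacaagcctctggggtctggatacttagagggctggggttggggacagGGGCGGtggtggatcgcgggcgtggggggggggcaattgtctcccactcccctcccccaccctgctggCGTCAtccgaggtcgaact
Morf4l2, chrX:136743687-136743936, minus strand: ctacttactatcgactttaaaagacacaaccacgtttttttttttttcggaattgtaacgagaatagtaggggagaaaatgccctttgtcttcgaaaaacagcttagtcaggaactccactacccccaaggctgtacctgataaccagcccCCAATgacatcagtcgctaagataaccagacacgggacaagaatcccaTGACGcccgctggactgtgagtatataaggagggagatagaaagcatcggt
A TGACG match is held by both windows and by 17.8% of the 32851 RefSeq windows of this length. A match is a run of letters and says nothing of binding.

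Yeats4 (GAS41) reads acylated histone H3 and is shared with the SRCAP complex. The gene (ENSMUSG00000020171, chr10:117215221-117224507) was at 89.3, 89.6 and 87.2 CPM in WT and at 87.6, 76.4 and 80.3 CPM in cKO. The libraries cKO 2 and cKO 3 were the 2 lowest, while cKO 1 lay within the WT range. The log2 fold change was -0.12 (SE 0.070), or 91.8% of WT with limits of 82.7% and 102.0% (edgeR adjusted p 0.448). Yeats4 has the shortest merged exons of the 10 genes, 1.415 kb.

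**Figure D2:**
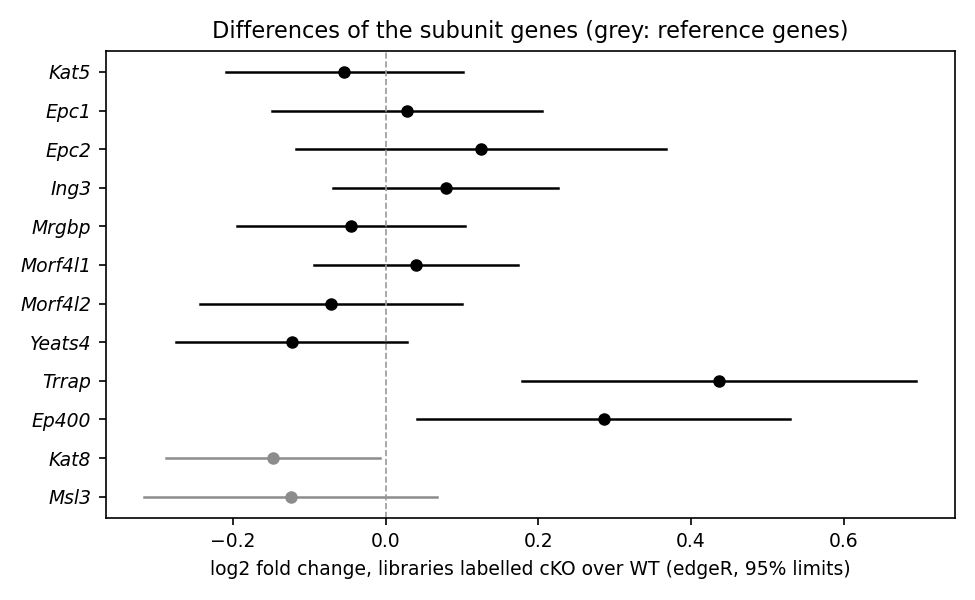
Log2 fold change (points) with 95% limits (lines) from the edgeR fit for the 10 subunit genes in black and for Kat8 and Msl3 in grey. The limits include 0 for 8 of the 10 subunit genes and exclude it for Trrap and Ep400, whose adjusted p values are 0.276 and 0.313.

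Trrap and Ep400 gave the largest differences among the members, and in both the 3 cKO libraries were not alike. Trrap (ENSMUSG00000045482, chr5:144767732-144859778) is a pseudokinase scaffold that also serves the SAGA complex. It was at 123, 134 and 130 CPM in WT and at 135, 199 and 190 CPM in cKO. The library cKO 1 exceeded the highest WT library by less than 2 CPM, and cKO 2 and cKO 3 stood well above it. The log2 fold change was 0.44 (SE 0.12), or 135.4% of WT with limits of 113.2% and 161.9%. Its unadjusted edgeR p was 0.0031 and its adjusted p 0.276. Ep400 (ENSMUSG00000029505, chr5:110664373-110770717) was at 330, 341 and 308 CPM in WT and at 323, 472 and 398 CPM in cKO. Here cKO 1 lay inside the WT range, and cKO 2 and cKO 3 lay above it. The log2 fold change was 0.29 (SE 0.11), or 121.9% of WT with limits of 102.9% and 144.4% (edgeR unadjusted p 0.0256, adjusted p 0.313).

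The values of both genes, and whether they were called, depended on single cKO libraries and on the test. Without cKO 1, Trrap had a log2 fold change of 0.59 (edgeR adjusted p 0.0023) and Ep400 one of 0.41 (edgeR adjusted p 0.0219), so that 2 of the 10 members were called, against 2.82% of the genes tested there. Without cKO 2 the values moved the other way, to 0.33 for Trrap and 0.15 for Ep400 (edgeR adjusted p 0.584 and 0.623). DESeq2 called Trrap alone (adjusted p 0.0244), against 1.64% of the genes with an adjusted p. With no filter on low counts edgeR called Trrap and Ep400 (adjusted p 3.3e-05 and 0.0279), against 2.07% of genes. In the other 13 of the 16 alternatives no member was called. Over the 15 alternatives that give a fold change, the adjusted p ran from 3.3e-05 to 0.730 for Trrap and from 0.0219 to 0.862 for Ep400, and both log2 fold changes stayed above 0.

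**Figure D3:**
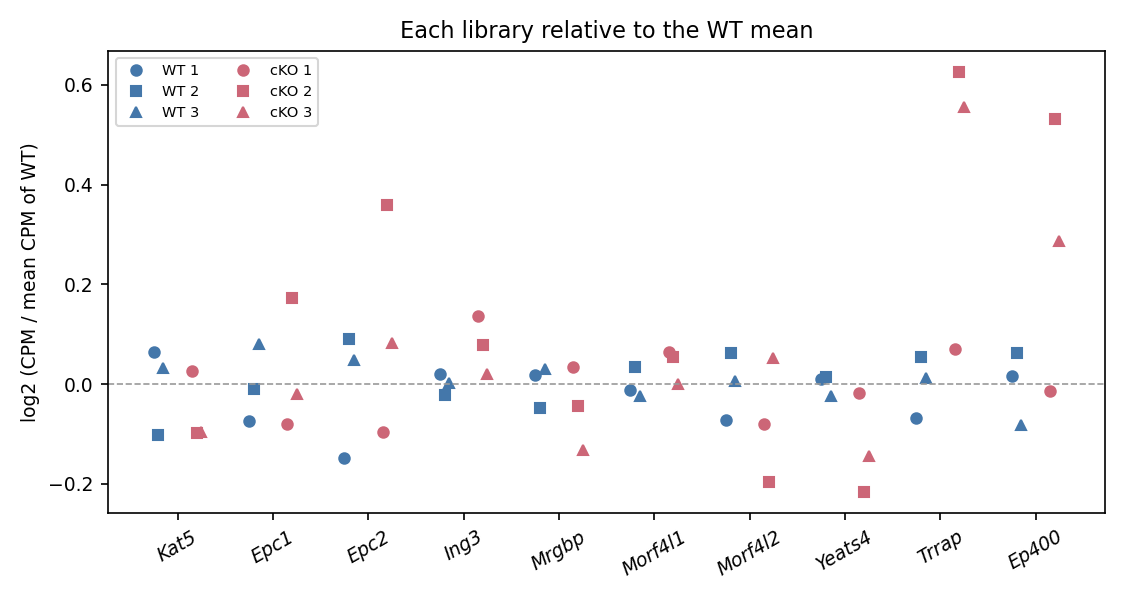
Log2 of the CPM of each library over the mean CPM of the WT libraries, for each subunit gene. For Trrap, cKO 2 and cKO 3 lie at 0.63 and 0.56 and cKO 1 at 0.07, and for Ep400 they lie at 0.53, 0.29 and -0.02. The lowest point of all is that of Yeats4 in cKO 2, at -0.22.

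Trrap and Ep400 have the longest merged exons of the members, 20.859 kb and 13.971 kb, against 1.415 to 9.754 kb for the other 8. Exon length moved with the libraries across the transcriptome. The 803 protein-coding genes with at least 12 kb of exons and a mean of at least 1 CPM had a median log2 fold change of 0.17, and 88.8% of them lay above 0. The 464 such genes under 1 kb had a median of -0.17, and 14.7% of them lay above 0. In the class of at least 12 kb, the median deviation from the WT mean was 0.29 in cKO 2, 0.18 in cKO 3 and -0.0025 in cKO 1. The WT libraries had medians from -0.01 to 0.03 in that class. Trrap and Ep400 had the same order of cKO libraries as long genes in general, with deviations above the class median in cKO 2 and cKO 3. In the class under 1 kb the medians were -0.28 in cKO 2, -0.11 in cKO 3 and -0.12 in cKO 1, against -0.06 to 0.07 in WT. After that correction for transcript length and GC content, chosen once the data had been seen, Trrap had a log2 fold change of 0.17 (edgeR adjusted p 0.555) and Ep400 one of 0.05 (edgeR adjusted p 0.862). With it 1 of the 10 members had an unadjusted p under 0.05, against 8.51% of all genes. The correction was fitted to each library without regard to group, so it also removes group differences that follow length or GC content. The part of exon length in the values of Trrap and Ep400 was not tested, and it cannot be told apart from that of the group here. The summed level of 8 round spermatid markers was also lowest in cKO 2 (1175 CPM) and next lowest in cKO 3 (1266 CPM), with 7 of the 8 genes below 0. It was 1355 CPM in cKO 1 and 1388, 1424 and 1425 CPM in the WT libraries, and its part in the values of Trrap and Ep400 was not tested. These markers are short, with a median exon length of 1.46 kb. Protein-coding genes of 1 to 2 kb had median deviations of -0.16 in cKO 2, -0.07 in cKO 3 and -0.01 in cKO 1. The median log2 fold change of that class was -0.08, and that of the 8 markers was lower, at -0.15.

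**Figure D4:**
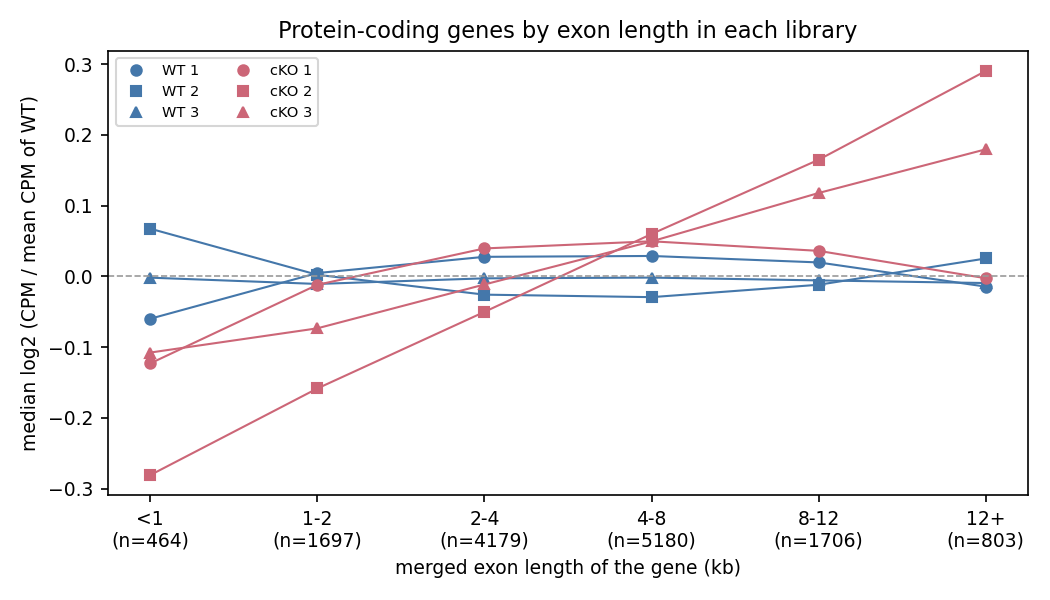
Median log2 of CPM over the WT mean CPM in each library (lines) for protein-coding genes grouped by merged exon length in kb, with the number of genes under each class. The lines of cKO 2 and cKO 3 run from -0.28 and -0.11 in the shortest class to 0.29 and 0.18 in the longest. The line of cKO 1 starts at -0.12, below the WT libraries, and ends at -0.0025, between them.

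The promoter windows of Trrap and Ep400 are shown because both genes, on chromosome 5, had the same order of cKO libraries. Epc2, on chromosome 2, and long genes in general had that order too. The windows of Trrap and Ep400 hold 69.6% and 70.0% G and C with 26 and 25 CpG, beside medians of 52.4% and 6 over all RefSeq windows. The Epc2 window holds more, 79.2% and 36 CpG. Capitals mark the GC box, GGGCGG on either strand:
Trrap, chr5:144768544-144768793, plus strand: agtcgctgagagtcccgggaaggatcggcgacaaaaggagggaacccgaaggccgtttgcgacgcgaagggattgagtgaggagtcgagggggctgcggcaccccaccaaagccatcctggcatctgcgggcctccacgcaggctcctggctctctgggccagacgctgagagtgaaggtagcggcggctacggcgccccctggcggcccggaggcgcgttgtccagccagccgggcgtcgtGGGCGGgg
Ep400, chr5:110770718-110770967, minus strand: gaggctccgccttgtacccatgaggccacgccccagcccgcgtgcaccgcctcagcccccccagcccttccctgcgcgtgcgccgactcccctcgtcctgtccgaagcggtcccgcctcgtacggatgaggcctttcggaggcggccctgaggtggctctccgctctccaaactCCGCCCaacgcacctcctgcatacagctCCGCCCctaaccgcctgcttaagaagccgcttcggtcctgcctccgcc
The Trrap window precedes a RefSeq start that lies 1062 bases inside the GENCODE gene. A GC box is present in 6 of the 9 member windows (Epc2, Morf4l1, Mrgbp, Trrap, Ep400 and Ing3) and in 32.7% of all windows. The CCAAT box is in 5 of the 9 and in 33.8% of all, and TATAAA is in 0 of the 9 and in 12.4% of all. The windows of Trrap and Ep400 hold no match to the other letters searched. These were the E-box (CACGTG, in 6.02% of all windows), the TGACG core, the CCAAT and TATA boxes, an ETS core (CCGGAAG, in 6.91%) and an NRF1 core (GCGCATGC, in 2.26%).

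Levels were compared between members only per kb of exon, as CPM per kb of the merged exons of a gene. Morf4l1 was the highest in all 6 libraries, at 71.3 ± 1.51 CPM per kb (SD, n = 3) in WT and 73.3 ± 1.71 CPM per kb (SD, n = 3) in cKO. Yeats4 was the next highest in all 6, at 62.7 ± 0.934 and 57.5 ± 4.04 CPM per kb (SD, n = 3 each). Kat5, at 27.8 ± 1.68 and 26.8 ± 1.35 CPM per kb (SD, n = 3 each), and Ep400, at 23.3 ± 1.19 and 28.5 ± 5.33 CPM per kb (SD, n = 3 each), came next. Kat5 was above Ep400 in every WT library, but their ranges overlapped in cKO. Mrgbp followed at 21.2 ± 0.619 and 20.6 ± 1.19 CPM per kb (SD, n = 3 each), and Morf4l2 at 13.1 ± 0.615 and 12.5 ± 1.08 CPM per kb (SD, n = 3 each). Epc1 lay between 8.70 and 10.4 CPM per kb over the 6 libraries and Ing3 between 6.504 and 7.25 CPM per kb. Trrap ran from 5.90 to 9.55 CPM per kb and so overlapped both of these neighbours, which did not overlap each other. Epc2 was the lowest in all 6 libraries, at 4.53 ± 0.390 and 4.95 ± 0.798 CPM per kb (SD, n = 3 each). Among all genes tested, by the mean over the 6 libraries, Morf4l1 lay above 95.7% and Epc2 above 62.2% of genes on this scale.

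The length used sets part of that order. With the length of the principal transcript, chosen as an alternative after the data had been seen, Morf4l1 came to 375 CPM per kb, since its merged exons of 9.754 kb include long alternative exons around a principal transcript of 1.882 kb. Yeats4 stayed next, at 64.1 CPM per kb, and Mrgbp moved above Kat5 and Ep400, at 48.5 CPM per kb. Epc2 stayed the lowest, at 4.74 CPM per kb. The lead of Morf4l1 in all 6 libraries and the last place of Epc2 in all 6 libraries held with both lengths.

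Ratios of reads within a library need no scaling and were compared for 3 pairs. There were 17.7, 16.6 and 16.6 reads of Morf4l1 for each read of Morf4l2 in WT and 18.7, 20.1 and 16.3 in cKO. The mean log2 ratio was 4.08 ± 0.052 in WT and 4.19 ± 0.153 in cKO (SD, n = 3 each, exact two-sided permutation p = 0.4, adjusted over the 3 ratios 0.5). Reads of Epc1 per read of Epc2 numbered 2.04, 1.81 and 1.98 in WT and 1.96, 1.70 and 1.80 in cKO, a difference in mean log2 ratio of -0.09 (exact permutation p = 0.2, adjusted 0.5). Reads of Kat5 per read of Kat8, the acetyltransferase of the MSL complex, numbered 0.685, 0.566 and 0.668 in WT and 0.709, 0.674 and 0.657 in cKO. The difference in mean log2 ratio was 0.09 (exact permutation p = 0.5, adjusted 0.5). With 3 libraries against 3 this test cannot go below 0.1, and all 3 ratios overlapped between the groups. Single libraries moved the differences: that of Morf4l1 over Morf4l2 was 0.05 without cKO 2 and 0.20 without cKO 3. That of Epc1 over Epc2 was -0.05 without cKO 2, -0.06 without WT 1, -0.14 without WT 2 and -0.15 without cKO 1. For Kat5 over Kat8 the difference was 0.0074 without WT 2 and 0.15 without WT 1.

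The other subunits of the complex were not called either. The list held Ruvbl1, Ruvbl2, Dmap1, Actl6a, Actb, Brd8, Vps72, Meaf6 and Mbtd1, which supply the ATPase ring, the actin module and reader domains. Of these 9 genes, 0 were higher and 0 lower by the adjusted test, and 0 had an unadjusted edgeR p under 0.05. All 9 log2 fold changes lay between 0.02 and 0.10 with TMM scaling, with a median of 0.05. The smallest p values were those of Meaf6 (68.4 ± 0.644 CPM in WT and 72.4 ± 2.97 CPM in cKO, SD, n = 3 each, edgeR adjusted p 0.585) and Mbtd1 (log2 fold change 0.10, edgeR adjusted p 0.637).

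Genes that work beside the complex were read from 4 further lists, and 0 of their 45 genes passed the adjusted test. Of the 54 genes in all 5 lists, 14 had higher and 5 lower values in cKO at an unadjusted edgeR p under 0.05, or 35.2% against 13.9% of all genes. The 19 genes became 10 without WT 3, 12 without WT 2 and 25 without cKO 1, while the count over all genes went from 3039 to 1410, 1625 and 3815. The 54 genes had a median exon length of 5.01 kb, beside 3.27 kb over all genes tested. With the length and GC correction 6 of the 54 were under 0.05, against 8.51% of all genes.

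Among the 6 genes of H2A.Z exchange, 2 had an unadjusted p under 0.05, both with lower values in cKO. Without WT 2 there were 0, and without cKO 1 there was 1 in each direction. H2afz, which encodes H2A.Z, was at 136 ± 11.0 CPM in WT and 116 ± 6.83 CPM in cKO (SD, n = 3 each), with a log2 fold change of -0.23 (edgeR adjusted p 0.298) and no overlap. Actr6, a subunit of the SRCAP complex, had a log2 fold change of -0.24 (edgeR adjusted p 0.305). With the length and GC correction these came to -0.13 and -0.12.

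Of the 16 partners of the MRG domain outside the complex, 5 had an unadjusted p under 0.05, all with higher values. There was 1 without WT 3, there were 3 without WT 2 or cKO 3, and without cKO 1 there were 6 with higher and 2 with lower values. They include Sin3a, the scaffold of a deacetylase complex (log2 fold change 0.22, edgeR adjusted p 0.298), and Phf12, which joins Sin3b and Morf4l1 (0.21, edgeR adjusted p 0.299). The histone H3 demethylases Kdm5b and Kdm5a had log2 fold changes of 0.19 and 0.17 (edgeR adjusted p 0.305 and 0.323), and the fifth gene was Hdac2 with 0.16. After the length and GC correction Kdm5b and Kdm5a were at 0.03 and 0.01, and Sin3a and Phf12 at 0.13 and 0.12. Without cKO 1, Ash1l and Brca2 were called (log2 fold changes 0.53 and 0.35), both named here after their values were seen.

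The list of the other MYST acetyltransferases and their scaffold subunits had 7 of 12 genes with higher and 1 with lower values at an unadjusted p under 0.05, and a median log2 fold change of 0.20. Without WT 3 there were 4 higher and 0 lower, and without WT 2 or cKO 2 or cKO 3 there were 5 and 0. The median exon length of the list was 7.59 kb. Kat6a and Kat6b, acetyltransferases of histone H3, had log2 fold changes of 0.37 and 0.33 (edgeR adjusted p 0.288 for each), and both were called without cKO 1 (log2 fold changes 0.50 and 0.44). Brpf3 was also called there, and DESeq2 called Kat6a alone of this list. The scaffolds Brd1 and Brpf1 had log2 fold changes of 0.22 and 0.20 (edgeR adjusted p 0.288 and 0.305). Kat8 was the gene with lower values, at 153 ± 6.62 CPM in WT and 138 ± 2.63 CPM in cKO (SD, n = 3 each, edgeR adjusted p 0.342). With the length and GC correction the list median was 0.09, and 2 of the 12 genes had an unadjusted p under 0.05.

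Of 11 genes of the histone-to-protamine transition, 2 had higher and 2 lower values at an unadjusted p under 0.05, which became 3 and 4 without cKO 1. The remodeller gene Chd5 had a log2 fold change of 0.28 (edgeR adjusted p 0.303). Transition protein gene Tnp1 had one of -0.40 (edgeR adjusted p 0.276) and the spermatid linker histone gene Hils1 one of -0.27 (edgeR adjusted p 0.288). Chd5 and Hils1 were called without cKO 1, and Tnp1 was called without WT 1. DESeq2 called Tnp1. With the length and GC correction Chd5 was at 0.04, Tnp1 at -0.24 and Hils1 at -0.18, none of them called.

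**Figure D5:**
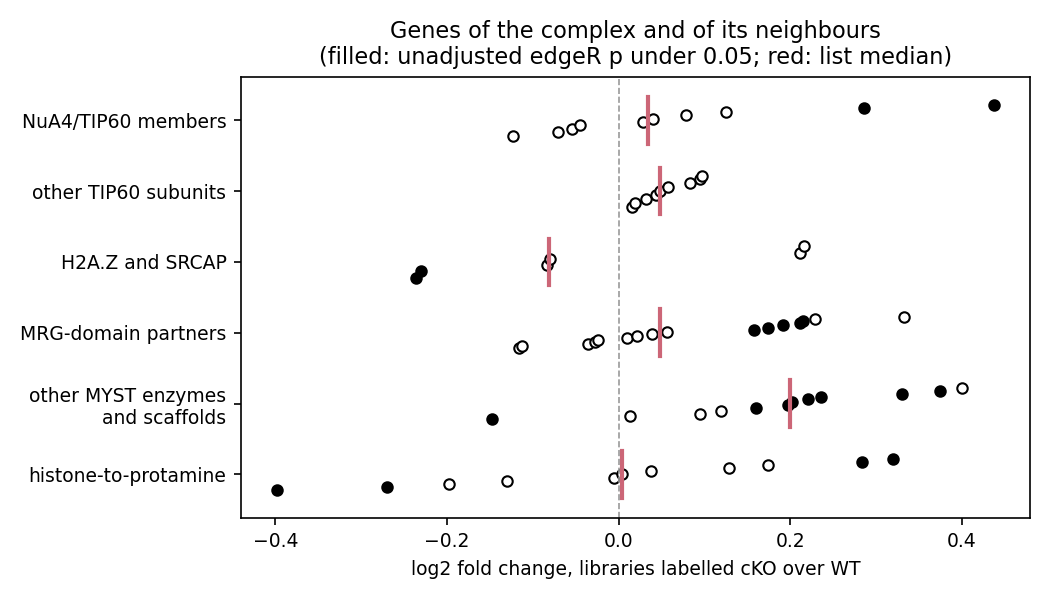
Log2 fold change of every gene in the subunit list and in the 5 neighbouring lists. Filled points have an unadjusted edgeR p under 0.05 and red bars are list medians, which run from -0.08 for H2A.Z and SRCAP genes to 0.20 for the other MYST enzymes and scaffolds. No gene in the plot passed the adjusted test.

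Reads on the strand opposite to the genes, which were not counted above, were few for most members. They made up at most 2.57% of the reads of a gene in any library for 9 members and 6.25% to 8.40% for Epc2. Kat5 shares 12.1% of its merged exons with Rnaseh2c on the opposite strand, and Morf4l1 15.4% with Gm26882. No annotated gene of GENCODE M21 overlaps Epc2. With unstranded counts, as with the counted strand, 0 of the 10 members were called.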

How the data were processed

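Total RNA of 6 testes was sequenced in single-end reads of 75 bp, per the labels' protocols. The submitters' processing notes name STAR, HTSeq, DESeq2 and the build mm10, without roles or versions. The authors deposited 1 table of raw counts per library, which gives each gene an unstranded count and a count for each strand. Annotation release and read filters are not given in the sources used here. Counts of the fourth column, which held 96.0% to 96.2% of the reads in the 2 strand columns, were used as those of the genes. The other strand column gave the reads described above as opposite to the genes. Lines naming no gene, 14.8% to 16.7% of reads, were left out. Identifiers were matched to GENCODE M21 (GRCm38), which held 52093 of 53700. Promoter sequences are RefSeq's (GRCm38.p6), found for 9 of the 10 members. Epc1 has no entry.

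Counts were tested with edgeR 4.0.16 in R 4.3.3 (TMM, filterByExpr with a minimum count of 10, quasi-likelihood F test without covariates, Benjamini-Hochberg over 21902 genes). Standard errors and 95% limits come from the F statistic. The procedure was tested on counts simulated for each gene independently, without the link between exon length and library seen in these data. Ratios were compared by exact permutation of 3 libraries against 3. Alternatives were RLE scaling, library totals, 2 other filters, unstranded counts, a replicate block, robust fitting, DESeq2 1.42.0, a threshold of 0.1, each library left out, and 2 settings chosen after seeing the data: principal transcript lengths, and correction for length and GC content by loess (span 0.3). The members and lists were chosen with earlier results of these data known. The rule for neighbouring genes named up to 4 per list with the smallest unadjusted p under 0.05, or else 2; Hdac2, Brpf3, Ash1l and Brca2 were named outside it after their values were seen. The values of 1 gene of the lists are not reported here.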

Additional observations from a re-analysis of the deposited data

Results flagged for a closer look

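Reads on the uncounted strand of Epc2 were more abundant in every cKO library than in every WT library and stand out because that column entered no comparison above. They numbered 100, 98 and 97 in WT 1, 2 and 3 and 133, 112 and 108 in cKO 1, 2 and 3. On the TMM-scaled CPM scale these were 1.70, 1.51 and 1.56 CPM in WT and 1.82, 2.00 and 1.85 CPM in cKO, with means of 1.59 ± 0.0990 and 1.89 ± 0.0964 CPM (SD, n = 3 each). Of the 6068 tested genes with at least 10 such reads in every library, 345 (5.69%) had all cKO libraries above all WT libraries. Of the 7 members with that many reads, Epc2 was the only one. As a share of the Epc2 reads of both strands the groups overlapped, at 8.14%, 6.25% and 6.63% in WT and 8.40%, 6.83% and 7.58% in cKO. The difference in CPM was not tested, and the source of these reads was not examined.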

How the results depend on the processing

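No filter on low counts, DESeq2 and the fit without cKO 1 changed the count of called members from 0 to 2, 1 and 2. With single libraries omitted, this count was between 0 and 2. The count of called genes of the 5 neighbouring lists went from 0 to 7 without the filter and to 3 with DESeq2, and ran from 0 to 8 without each library. It was 1 without WT 1 (Tnp1). Of all genes, 4 were called, and 757 without the filter, 2 with unstranded counts and 199 with DESeq2. Leaving out a library gave 1 to 628 (628 without cKO 1, 116 without WT 1, 7 without cKO 3, 2 without WT 2 and 1 without WT 3 or cKO 2). RLE scaling gave 4 higher and 2 lower, library totals 2 and 1, against 2 and 2 with TMM. The cause of these changes was not tested.

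Epc1 changed sign with library totals (-5.2e-04) and with the length and GC correction (-0.018), and ran from -0.049 to 0.079 without each library. Epc2 ran from -0.0047 to 0.23 there. The other 8 members kept their direction under all 15 alternatives that give a fold change. Msl3 kept its direction, from -0.18 to -0.04, and was never called, and the 3 read ratios kept their sign under their 8 alternatives, though their size moved, from 0.05 to 0.20, from -0.15 to -0.05 and from 0.0074 to 0.15. With the principal transcript length the levels were 44.5 CPM per kb for Kat5, 10.5 for Epc1, 375 for Morf4l1, 20.1 for Morf4l2, 48.5 for Mrgbp, 12.2 for Trrap, 34.1 for Ep400, 8.56 for Ing3 and 64.1 for Yeats4, because the lengths are shorter.

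Between WT and cKO libraries that carry the same number, deviations from the group mean had a Pearson r across genes of 0.38, 0.26 and -0.07, and WT 3 did not correlate best with its own number, so no pairing was assumed. Under the replicate block, 49 genes were called (16 higher, 33 lower), 0 of them members, and the adjusted p of Trrap was 0.0539. The members had at least 1128 reads in every library, and the effect of depth on the calls was not tested.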
